A study of Homo sapiens with 9 samples.

Results

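The genes described here encode 10 proteins of the TGF-beta and activin pathway: the ligands TGFB1, TGFB2, TGFB3, INHBA and INHBB, the latent TGF-beta binding proteins LTBP1 and LTBP2, the activin antagonist FST, and the receptors TGFBR1 and TGFBR2. They were taken by gene symbol from the deposited table, which lists 32378 genes. All 10 were found, and 9 of them passed the filter on low counts that left 16450 genes to be tested. FST did not pass it.

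RNA was sequenced from SKOV3 cells, a human line of ovarian carcinoma origin grown in RPMI 1640 medium with fetal bovine serum. There were 3 groups of 3 libraries: cells labelled control, cells treated with Carbo, which is read here as the platinum drug carboplatin from the title of the series, and cells treated with Carbo+COM33. COM33 is known only by its code name, no group received COM33 alone, and the labels give no dose or duration and do not say what the control cells received. The labels do not state whether libraries of a group came from separate cultures, so the p-values measure the spread between these libraries, which may be technical.

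TGF-beta ligands are made as dimeric precursors and leave the cell in a latent complex, in which the propeptide keeps the ligand inactive and a latent binding protein such as LTBP1 tethers it to the matrix. Integrins, thrombospondin and proteases release the active ligand, which binds the type II receptor TGFBR2 and through it the type I receptor TGFBR1, so that SMAD2 and SMAD3 are phosphorylated and enter the nucleus with SMAD4. Activins are dimers of the chains encoded by INHBA and INHBB, use their own receptors, signal through the same SMADs, and are bound and neutralised by follistatin, the product of FST. In ovarian epithelium TGF-beta and activin are known for restraining growth of normal cells and for promoting epithelial-mesenchymal transition in carcinoma.

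Total counts per library ran from 13851760 to 15533668. Of 10 markers of ovarian carcinoma epithelium, 8 were above 1 FPKM (fragments per kilobase of exon in a total scaled to 1000000) in every library, among them ERBB2, from 141 to 245 FPKM, and PAX8, from 38.0 to 70.4 FPKM. MUC16, at no more than 0.0646 FPKM, and WT1, at no more than 0.562 FPKM, were not. None of the 7 markers of blood and immune cells, the 4 of endothelium or the 7 of fibroblasts was above 1 FPKM in every library. The fibroblast marker COL1A1, however, ran from 0.559 to 3.89 FPKM. ERBB2 had 20168 to 38843 reads per library, against at most 7217 for any other epithelial marker, and so weighs most in their sum. The summed level of the epithelial markers was 3975 to 4161 CPM (counts per 1000000 of the library total after TMM scaling) in control, 3785 to 4105 in Carbo and 2915 to 3352 in Carbo+COM33, and that of the fibroblast markers, most of it COL1A1, was 10.3 to 39.8, 10.2 to 39.8 and 6.11 to 12.9 CPM. The part of these shifts in the results below was not tested, and in bulk RNA fewer cells of a type and less RNA per cell cannot be told apart.

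The upstream sequences of the 3 ligand genes on which the results turn, TGFB2, INHBA and TGFB1, are given first, because their transcripts had the largest of the called differences. They are the bases before the RefSeq start site on the gene's own strand (RefSeq, GRCh38.p14), 5′ to 3′, without bases annotated as untranslated region, and capitals mark matches to a motif on either strand.
TGFB2: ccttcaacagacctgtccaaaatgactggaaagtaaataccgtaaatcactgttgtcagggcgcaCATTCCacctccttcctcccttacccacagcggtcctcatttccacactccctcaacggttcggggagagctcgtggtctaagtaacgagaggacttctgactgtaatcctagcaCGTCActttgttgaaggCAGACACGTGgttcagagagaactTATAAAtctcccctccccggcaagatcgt
INHBA: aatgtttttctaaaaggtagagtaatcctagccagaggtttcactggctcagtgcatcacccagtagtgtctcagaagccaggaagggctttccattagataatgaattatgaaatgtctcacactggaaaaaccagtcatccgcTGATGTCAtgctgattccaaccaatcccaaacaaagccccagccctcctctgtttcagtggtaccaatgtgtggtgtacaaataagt
TGFB1: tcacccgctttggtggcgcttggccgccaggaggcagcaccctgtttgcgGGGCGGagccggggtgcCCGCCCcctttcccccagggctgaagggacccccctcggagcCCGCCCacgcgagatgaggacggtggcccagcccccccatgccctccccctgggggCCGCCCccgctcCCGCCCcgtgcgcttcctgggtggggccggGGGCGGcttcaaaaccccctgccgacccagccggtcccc
The TGFB2 window is chr1:218345086-218345335 on the plus strand, the INHBA window chr7:41703109-41703340 on the minus strand and the TGFB1 window chr19:41353923-41354168 on the minus strand. The TGFB2 window overlaps an exon of the antisense gene TGFB2-AS1, and its RefSeq start, 218345336, lies before the GENCODE 29 start of TGFB2, 218346235. The INHBA window lies within the GENCODE span of INHBA, and the TGFB1 window overlaps an exon of TMEM91. The motifs searched were the cyclic AMP response element TGACGTCA, its form TGANGTCA (added after the sequences had been read), its shorter core CGTCA, the AP-1 motif TGANTCA, the E-box CACGTG, the TATA box TATAAA, the SMAD motif CAGACA, the TEAD motif GGAATG and the GC box GGGCGG. A match is a description of the letters and not a binding site.

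In the TGFB2 window, positions counted back from the start site placed TATAAA at -29, the E-box at -49, overlapping the SMAD motif CAGACA at -53, the core CGTCA at -70 and a TEAD motif, as CATTCC, at -185. In the INHBA window TGATGTCA stood at -105, and TATAAA at -11 lay among the bases next to the start site that are not printed. The TGFB1 window held 6 GC boxes and was 77.2% G and C, against 50.4% for TGFB2 and 44.0% for INHBA. Among 35116 windows of 250 bases in the same table, TATAAA was found in 10.7%, CACGTG in 6.34%, CAGACA in 13.6%, CGTCA in 21.2%, GGAATG in 11.9%, TGANGTCA in 6.87% and GGGCGG in 42.6%. TGACGTCA, found in 1.65%, and TGANTCA, found in 6.57%, had no match in the 3 windows.

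The members differed widely in level. Per gene length, TGFB1 and TGFBR2 were the highest, with group means of 28.0 to 41.7 FPKM and 29.4 to 38.4 FPKM, and their ranges over libraries overlapped in every group. TGFBR1 followed at 9.09 to 9.91 FPKM, above LTBP2 in every library of each group. LTBP2, at 6.71 to 7.13 FPKM, and LTBP1, at 6.49 to 7.02 FPKM, overlapped in every group. INHBA, at 1.04 to 2.0 FPKM, and TGFB2, at 0.903 to 2.64 FPKM, overlapped each other in every group, and INHBB (0.265 to 0.526 FPKM) and TGFB3 (0.131 to 0.205 FPKM) were lower, overlapping each other in Carbo. FST had 4 reads in all: 1 in Carbo library 3 and 3 in Carbo+COM33 library 3, with a count of 0 in the other 7 libraries, which allows up to 0.191 to 0.221 CPM in each, counting error only.

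**Figure D1:**
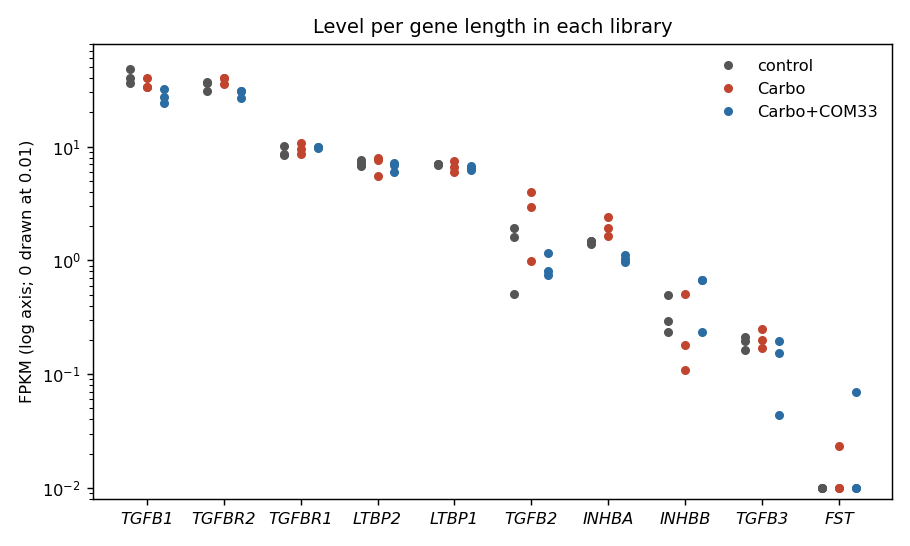
Level of each of the 10 genes in every library, in FPKM on a logarithmic axis, with values of 0 drawn at 0.01; each point is 1 library and colours mark the 3 groups. TGFB1 and TGFBR2 lie between 24.4 and 48.5 FPKM, TGFB2 spreads from 0.509 to 4.0 FPKM, and FST is at 0 in 7 of 9 libraries.

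The first comparison asks how the pathway's genes stood in Carbo-treated cells against control. In the test with no pairing, edgeR's quasi-likelihood test over all 9 libraries with Benjamini-Hochberg adjustment, none of the 9 members was called at an adjusted p under 0.05, nor was any other gene (0% of the 16450 tested; lowest adjusted p = 0.220). Before adjustment 2748 genes had a p under 0.05, among them 1 member, INHBA, and DESeq2 called 132 genes and no member. Libraries of control and Carbo with the same replicate number deviated together from their group means, with correlations of 0.824, 0.565 and 0.748 over 6607 genes. Carbo library 2 with control library 3 and Carbo library 3 with control library 2 also correlated positively, by 0.402 and 0.254. Libraries numbered 1 correlated negatively with those of other numbers (-0.779 to -0.446). The labels state no pairing, and by this check, made on these same counts, the numbers were taken to pair these samples. With the replicate number as a block, 4 members were called: TGFB2, INHBA and TGFBR2 rose and TGFB1 fell. That test called 22.7% of all genes, 1847 upward and 1892 downward, so a share of 4 in 9 is to be read against a high background. A block fitted over all 9 libraries, in which the Carbo+COM33 numbers did not pair, called no gene (TGFB2 and INHBA adjusted p = 0.199, TGFB1 0.263, TGFBR2 0.406).

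TGFB2, a ligand that binds TGFBR2 well only with the help of the co-receptor TGFBR3, had the largest difference. It stood at 2.63, 8.19 and 9.85 CPM in control libraries 1, 2 and 3 and at 5.05, 14.9 and 20.6 CPM in Carbo libraries 1, 2 and 3. Libraries numbered 1 were the lowest of both groups, and the groups overlapped, but within each pair Carbo was higher, by log2 ratios of 0.94, 0.86 and 1.07. The paired log2 fold change was 0.96 (SE 0.131, adjusted p = 9.6e-05). TGFB2 was also called with any 1 pair left out (adjusted p at most 4.68e-04) and after trends with GC content and length had been removed (0.80, adjusted p = 3.27e-04). The paired test leaves only 2 residual degrees of freedom, and fewer with a pair left out. With pair 1, 2 or 3 left out, 4338, 1623 and 2842 of all genes were called, so these calls say little about robustness. Without pairing the log2 fold change was 0.97 (SE 0.456, adjusted p = 0.307). Of the fits that left out 1 library only that without Carbo library 1 called TGFB2 (1.36, adjusted p = 0.0327), a test in which 1034 genes passed in place of 0. The unpaired value was 0.53 without Carbo library 3 and 0.58 without control library 1.

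TGFB2 nevertheless remained a minor part of the TGF-beta ligand transcripts. Its share of the summed FPKM of TGFB1, TGFB2 and TGFB3 was 1.37%, 3.19% and 4.55% in the control libraries and 2.83%, 6.79% and 10.6% in the Carbo libraries, and TGFB1 made up at least 88.8% of the sum in every library of both groups.

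INHBA, which encodes the chain of activin A, stood at 11.6, 12.1 and 12.2 CPM in control and at 13.6, 16.0 and 20.01 CPM in Carbo. It was the only member whose groups did not overlap in this comparison, a property of 22.5% of all genes tested. The log2 ratios of the pairs were 0.22, 0.40 and 0.71, and the paired log2 fold change was 0.45 (SE 0.115, adjusted p = 0.00953). The call was lost without pair 3 (adjusted p = 0.119) and after removal of the GC and length trends (0.29, adjusted p = 0.108). Without pairing the value was 0.46 (SE 0.147, adjusted p = 0.229), and it was called without Carbo library 1 (0.58, adjusted p = 0.0327).

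TGFB1, the main TGF-beta ligand of these cells, stood at 119, 156 and 129 CPM in control and at 108, 128 and 108 CPM in Carbo. Carbo was lower in every pair, with log2 ratios of -0.14, -0.28 and -0.25, while the groups overlapped. The paired log2 fold change was -0.23 (SE 0.0512, adjusted p = 0.00409), but it was not called without pair 2 (adjusted p = 0.120) and became 0.02 (adjusted p = 0.879) once GC and length trends had been removed. TGFB1 is GC-rich, at 63.5% of the bases of its longest transcript, against 38.9% for TGFB2 and 39.1% for INHBA.

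TGFBR2, the receptor that binds TGF-beta first, stood at 147, 168 and 174 CPM in control and at 166, 186 and 188 CPM in Carbo, higher in every pair by log2 ratios of 0.17, 0.14 and 0.11. Its paired log2 fold change of 0.14 (SE 0.0467, adjusted p = 0.0422) was close to the threshold and was not called without pair 1 (adjusted p = 0.0709), without pair 2 (adjusted p = 0.267) or with GC and length trends removed (0.12, adjusted p = 0.108). The other 5 tested members, TGFB3, INHBB, LTBP1, LTBP2 and TGFBR1, were called in neither test. Of these, TGFBR1 stood at 62.0 ± 6.78 CPM in control and 65.9 ± 7.61 CPM in Carbo (mean ± SD, n = 3), and LTBP1 and LTBP2 had log2 fold changes of -0.06 and -0.02.

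**Figure D2:**
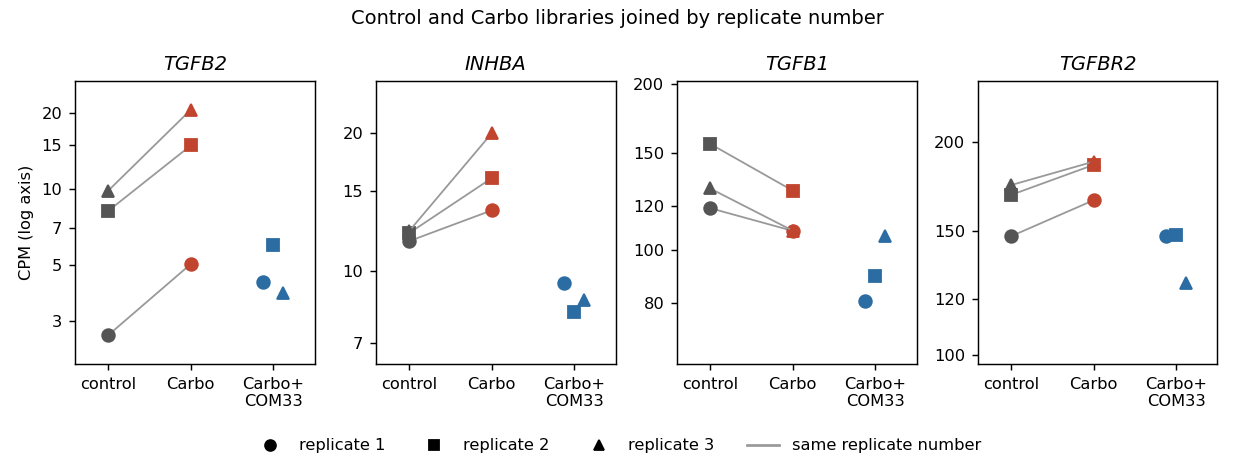
Level of TGFB2, INHBA, TGFB1 and TGFBR2 in CPM on logarithmic axes, 1 symbol per library, with grey lines joining the control and Carbo libraries of the same replicate number; Carbo+COM33 libraries are not joined because their numbers did not pair. All 3 lines rise for TGFB2, INHBA and TGFBR2 and all 3 fall for TGFB1, and the TGFB2 libraries numbered 1 lie lowest in control and Carbo, at 2.63 and 5.05 CPM.

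The second comparison, Carbo+COM33 against Carbo, addresses what the addition of COM33 did to the pathway's transcripts in carboplatin-treated cells. INHBA fell, to a ratio of 0.530, TGFBR2 fell by less, to a ratio of 0.782, and no member rose at an adjusted p under 0.05. These 2 of 9 tested members compare with 4.96% of all genes tested, 400 higher and 416 lower. As the members were chosen with earlier results of these data known, these counts are a description. The median log2 fold change of the 9 tested members was -0.32, with 2 of them positive, beside a median of -0.01 over all genes tested. In 3 members, TGFB1, INHBA and TGFBR2, every Carbo+COM33 library was below every Carbo library, and 23.7% of all genes showed such a separation in one direction or the other. The Carbo libraries also enter the comparison with control, so their high INHBA values bear on both.

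INHBA stood at 9.43, 8.17 and 8.66 CPM in Carbo+COM33 libraries 1, 2 and 3, from 128, 117 and 125 reads, against 13.6, 16.0 and 20.01 CPM in Carbo, from 202, 251 and 287 reads. The Carbo+COM33 libraries lay close together (SD 0.632 CPM) and below the control libraries as well. The log2 fold change was -0.92 (SE 0.151, a ratio of 0.530, adjusted p = 0.00615). INHBA remained called when any 1 of the 9 libraries was dropped (adjusted p 3.57e-04 to 0.0401) and with GC and length trends removed (-0.85, adjusted p = 0.00368). Of 22 alternatives only the block of 6 libraries without replicate number 2 lost the call (adjusted p = 0.0875).

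The 5 genes whose library-to-library pattern was most like that of INHBA, by the root mean square difference of centred log2 CPM over the 9 libraries, were IGFBP3 (0.0931), ZNF793 (0.11), ARHGEF39 (0.113), PDE4D (0.120) and MCM7 (0.121), where INHBA itself varied by 0.390. IGFBP3 encodes a secreted carrier of insulin-like growth factors, PDE4D a cyclic AMP phosphodiesterase and MCM7 a subunit of the replicative helicase. Because they were chosen for this likeness, their own log2 fold changes in this comparison, from -0.91 for MCM7 to -0.80 for IGFBP3, are a description.

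TGFBR2 stood at 147, 148 and 126 CPM in Carbo+COM33 against 166, 186 and 188 CPM in Carbo, and the 2 groups did not overlap. The log2 fold change was -0.36 (SE 0.0938, adjusted p = 0.0480), near the threshold. It was called without control library 1 (adjusted p = 0.0350) and without Carbo library 1 (adjusted p = 0.00986), and not without any other single library (adjusted p 0.0625 to 0.199). TGFBR1, the signalling partner, was not called. It stood at 65.9 ± 7.61 CPM in Carbo and 68.8 ± 0.519 CPM in Carbo+COM33 (n = 3 each), a log2 fold change of 0.06 (SE 0.102, adjusted p = 0.770). The difference between the 2 receptors' changes was not tested.

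TGFB2 stood at 4.27, 6.01 and 3.88 CPM in Carbo+COM33, from 58, 86 and 56 reads, against 5.05, 14.9 and 20.6 CPM in Carbo. The group means were 4.72 and 13.5 CPM, the largest ratio among the 9 tested members, but Carbo library 1 lay within the range of the Carbo+COM33 libraries. The log2 fold change of -1.52 (SE 0.475) had an adjusted p of 0.0853 and was not called. It was called without Carbo library 1 (-1.91, adjusted p = 0.00205) and without control library 1 (-1.51, adjusted p = 0.0352). Without any other single library the adjusted p ran from 0.0920 to 0.299. With all libraries kept, edgeR called TGFB2 without the count filter (-1.50, SE 0.189, adjusted p = 4.17e-13) and with a block over all 9 libraries (-1.37, adjusted p = 0.0191). These 2 fits called 1876 and 1554 of all genes, and the fit without Carbo library 1 called 2721, in place of 816. The low p without the filter went with a smaller SE at nearly the same fold change, so it says little about robustness. The block of 6 libraries with GC and length trends removed also called TGFB2 (-1.33, adjusted p = 0.0340), though the numbers did not pair here. In all, TGFB2 was called in 8 of 22 alternatives.

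TGFB1 stood at 80.6, 89.5 and 106 CPM in Carbo+COM33 and at 108, 128 and 108 CPM in Carbo, 2 groups separated by a narrow margin, with a log2 fold change of -0.32 (SE 0.123, adjusted p = 0.148). TGFB1 was called in 4 of 22 alternatives, among them those with GC and length trends removed (-0.34, adjusted p = 0.0440) and without the count filter (-0.31, adjusted p = 0.0453). INHBB, the other activin chain, had few reads: 24, 9 and 5 in Carbo and 30, 31 and 11 in Carbo+COM33. Its log2 fold change was 1.01 (SE 0.537, adjusted p = 0.294), in the opposite direction to INHBA, and it was called only without Carbo library 1 (1.86, adjusted p = 0.0343). TGFB3, with 13 to 18 reads in Carbo and 3, 11 and 14 in Carbo+COM33, had a log2 fold change of -0.60 (adjusted p = 0.455). LTBP1, which anchors latent TGF-beta, and LTBP2, a protein of matrix microfibrils, had log2 fold changes of -0.02 and -0.04 with standard errors of 0.0936 and 0.124.

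**Figure D3:**
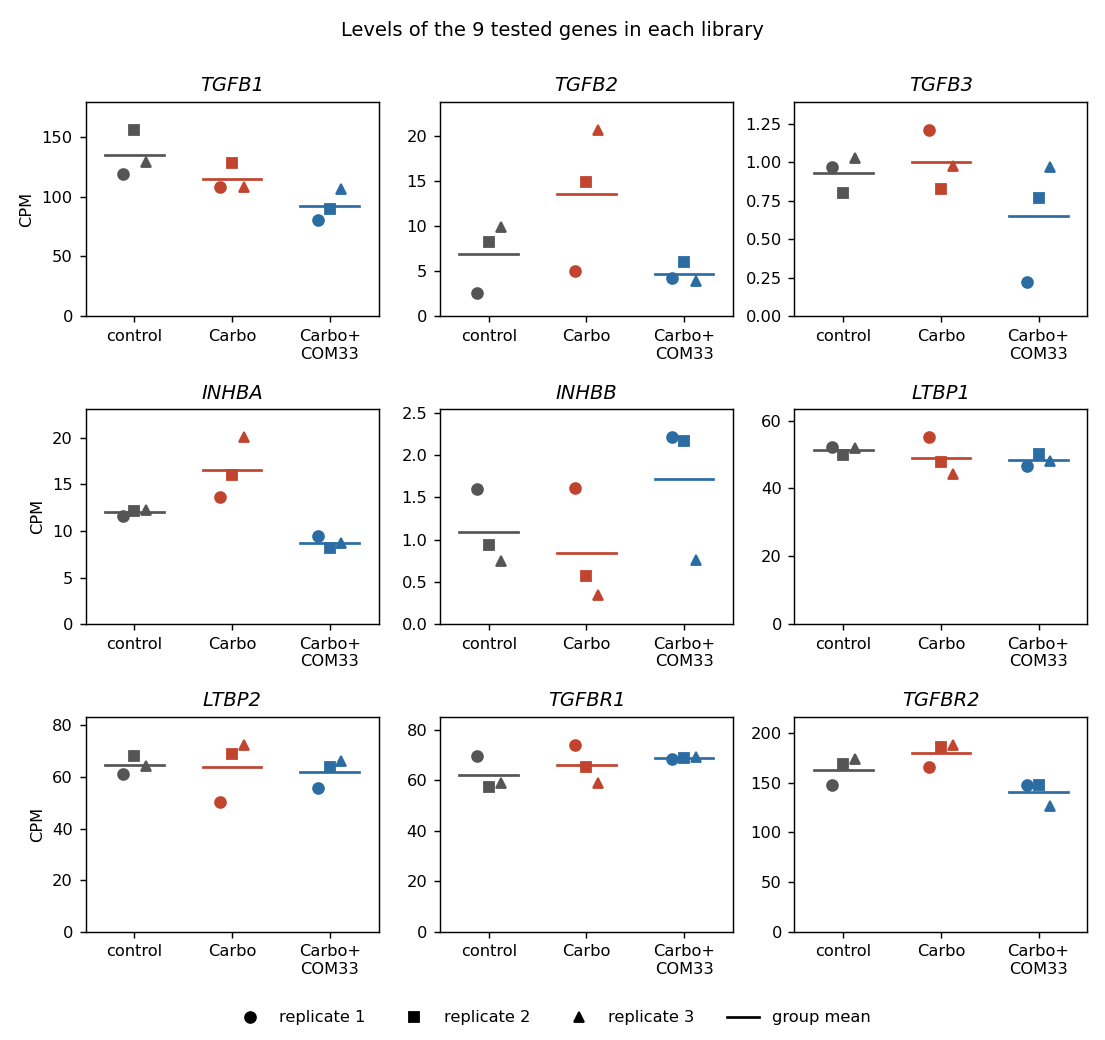
Level of the 9 tested genes in CPM, on linear axes from 0, with 1 symbol per library (shape gives the replicate number) and a bar at each group mean (n = 3). INHBA is highest in Carbo (13.6 to 20.01 CPM) and lowest in Carbo+COM33 (8.17 to 9.43 CPM) with no overlap, while LTBP1, LTBP2 and TGFBR1 overlap in all groups.

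The third comparison sets Carbo+COM33 against control. TGFB1 was the only member called and was lower: 80.6, 89.5 and 106 CPM against 119, 156 and 129 CPM, with no overlap. Its log2 fold change was -0.55 (SE 0.123, a ratio of 0.684, adjusted p = 0.0240), 1 of 9 tested members beside 6.29% of all genes (527 higher, 508 lower; with GC and length trends removed, 596 and 359). The call was lost without control library 2 (adjusted p = 0.133), control library 3 (adjusted p = 0.0701), Carbo+COM33 library 1 (adjusted p = 0.131) or Carbo+COM33 library 2 (adjusted p = 0.108), and when GC and length trends were removed (-0.33, adjusted p = 0.0599).

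INHBA was also below control in every library, at 8.17 to 9.43 CPM against 11.6 to 12.2 CPM, with a log2 fold change of -0.46 (SE 0.153, adjusted p = 0.0925) that was not called. It was called without Carbo library 1 (-0.46, adjusted p = 0.0452) and with GC and length trends removed (-0.55, adjusted p = 0.0330). TGFB1 and INHBA were the 2 members whose groups did not overlap, a property of 28.7% of all genes here. TGFB2, at 2.63 to 9.85 CPM in control and 3.88 to 6.01 CPM in Carbo+COM33, had a log2 fold change of -0.55 (SE 0.493, adjusted p = 0.536), and TGFBR2 one of -0.22 (adjusted p = 0.180). The median over the 9 tested members was -0.22, beside -0.01 over all genes.

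**Figure D4:**
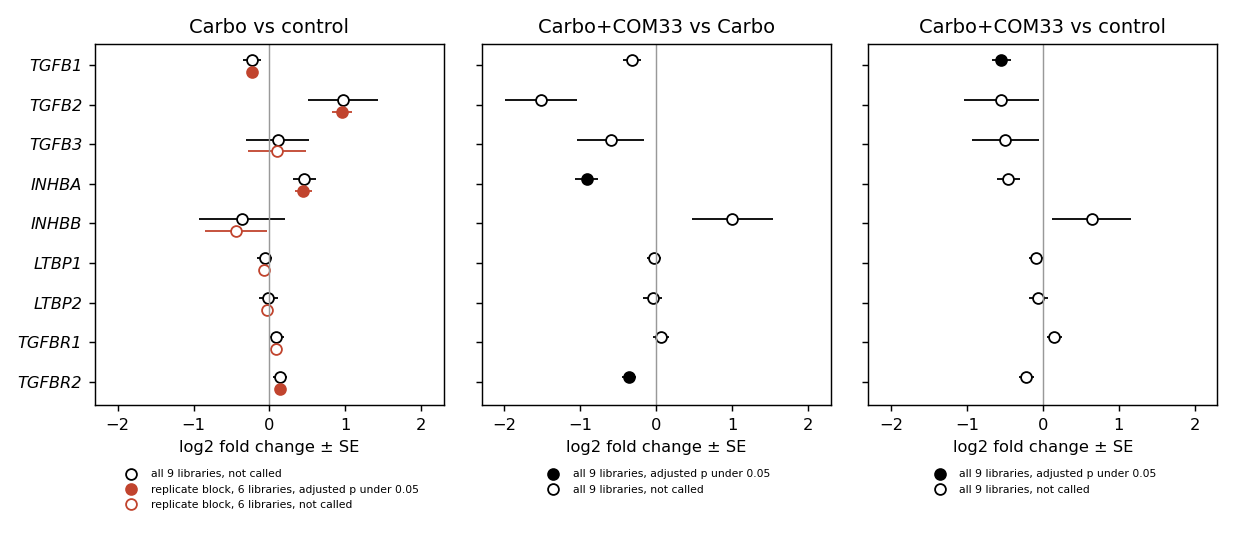
Log2 fold change with its standard error for the 9 tested genes in the 3 comparisons; black marks are the test over all 9 libraries without pairing, red marks the paired test of 6 libraries for Carbo against control, and filled marks have an adjusted p under 0.05. Filled marks are TGFB2, INHBA, TGFBR2 and TGFB1 in the paired test, INHBA (-0.92) and TGFBR2 (-0.36) for Carbo+COM33 against Carbo, and TGFB1 (-0.55) for Carbo+COM33 against control.

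The rest of the pathway was described with 6 lists by role, 107 further genes of which 103 were in the table and 90 were tested. Of these genes, 3 stand in 2 lists each and are counted once in the totals. The lists were chosen with earlier results of these data known, so their counts beside the share of all genes are a description. For Carbo against control no pathway gene was called without pairing (DESeq2 called 1), and in the paired test 20 rose and 8 fell, with a median log2 fold change of 0.05 over the 90 genes, beside 22.7% of all genes called (1847 up, 1892 down). With GC and length trends removed as well, 15 rose and 4 fell. The 8 with the lowest p (adjusted p at most 0.000505) included the latent TGF-beta activator THBS1 (0.72), the receptor-regulated SMAD3 (0.30), the target gene CTGF (0.63), the BMP target ID1 (0.38) and the secreted follistatin-like protein FSTL1 (0.33), all of which were also called with any 1 pair left out and with GC and length trends removed. The calls of the other 3 were lost with that correction: the stress-induced ligand GDF15 (-0.36; corrected -0.10, adjusted p = 0.187), the activin antagonist FSTL3 (-0.26; corrected 0.00, adjusted p = 0.975) and the SMAD4 ubiquitin ligase TRIM33 (0.29; corrected 0.14, adjusted p = 0.0578). The fits with pair 1, 2 or 3 left out called 4338, 1623 and 2842 of all genes.

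Several of these genes, but not all, shared the library pattern of TGFB2. THBS1 stood at 52.8, 174 and 177 CPM in control and at 58.8, 279 and 393 CPM in Carbo, and CTGF at 10.3, 28.6 and 30.7 CPM in control and 12.2, 40.2 and 59.6 CPM in Carbo. In both, the libraries numbered 1 were the lowest of their group. GDF15, by contrast, was highest in control library 1 (183 CPM) and Carbo library 1 (142 CPM), and SMAD3 was highest in Carbo library 1 (219 CPM) among the Carbo libraries. Libraries numbered 1 also deviated from the others over 6607 genes (correlations of -0.779 to -0.446), so the pattern is not particular to these genes.

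With COM33 added to Carbo, 4 of the 90 genes rose and 10 fell, with a median log2 fold change of -0.09, beside 4.96% of all genes called (400 up, 416 down) and a median of -0.01. These counts are a description, as the lists were chosen with earlier results known. Of the 28 tested transcriptional targets 2 rose and 5 fell (median -0.29), of the 24 SMADs and regulators none rose and 4 fell (median -0.12), and of the 12 activators none rose and 2 fell (THBS1, with a log2 fold change of -2.40, and the integrin chain ITGB8, with -1.92). Of the other ligands 1 of 9 rose (GDF15), of the other receptors and co-receptors 1 of 13 rose (BAMBI), and of the 7 tested latency, storage and antagonist genes none was called. THBS1, ITGB8 and GDF15 are named here because the counts are small, after their values had been seen, and THBS1 in Carbo library 1, at 58.8 CPM, lay just above the 36.6 to 52.8 CPM of Carbo+COM33.

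The 8 pathway genes with the lowest p in that comparison were led by ANGPTL4, a secreted inhibitor of lipoprotein lipase that TGF-beta induces through SMADs. It fell from 28.6 ± 8.19 CPM in Carbo to 10.7 ± 1.75 CPM (n = 3 each), a log2 fold change of -1.41 (SE 0.203, adjusted p = 0.00338). The BMP-SMAD targets ID1 and ID3 fell by 1.71 and 1.62 on the log2 scale (adjusted p = 0.00440 and 0.00796), and SMAD6, an inhibitory SMAD, fell by 1.71 (adjusted p = 0.00776). The cytokine IL11 fell by 1.02 (adjusted p = 0.0162), and PMEPA1, a TGF-beta-induced inhibitor of SMAD phosphorylation, fell by 0.67 (adjusted p = 0.0175). RHOB, a small GTPase, rose by 0.56 (adjusted p = 0.00368), and BAMBI, a receptor without a kinase domain that damps TGF-beta and BMP signalling, rose by 0.70 (adjusted p = 0.0109).

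ID1 stood at 105, 192 and 221 CPM in Carbo and at 46.4, 55.8 and 56.0 CPM in Carbo+COM33, with no overlap. ANGPTL4, ID1 and RHOB were called with any single library left out. ID3 and SMAD6 missed the threshold without Carbo library 2 or Carbo+COM33 library 1 (adjusted p at most 0.0548 in both), BAMBI without Carbo library 2 or 3 (at most 0.0756), IL11 without Carbo library 2 or 3 or Carbo+COM33 library 1 or 2 (at most 0.0978), and PMEPA1 without Carbo library 2 or 3 or any 1 Carbo+COM33 library (at most 0.107).

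**Figure D5:**
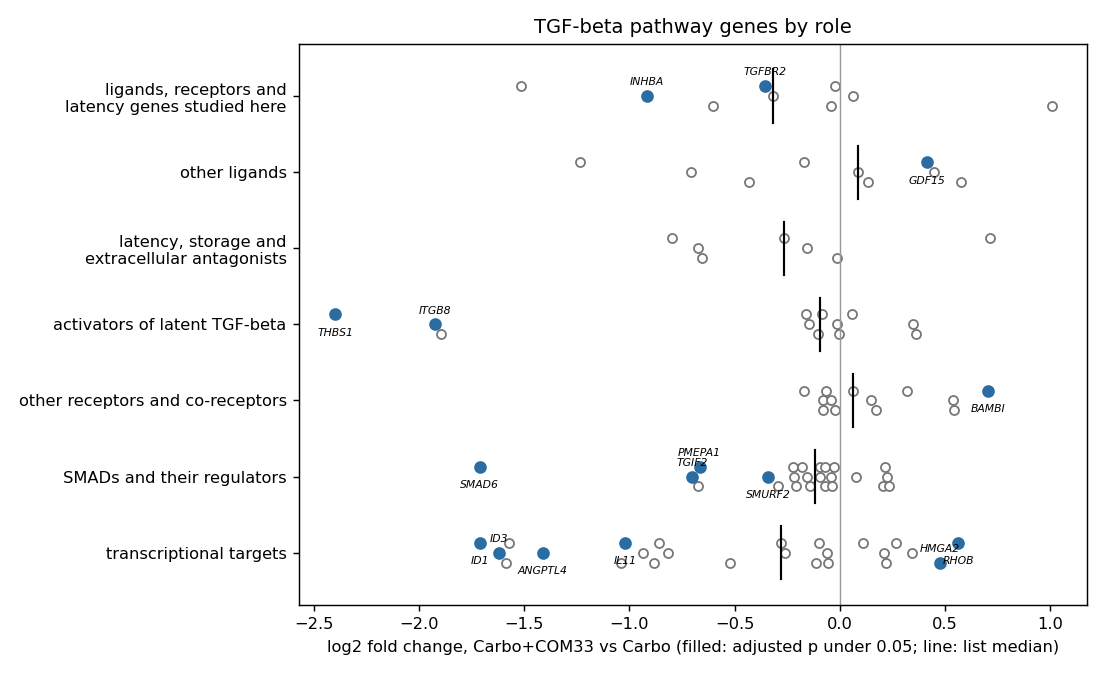
Log2 fold change of Carbo+COM33 against Carbo for the 9 tested members (top line) and the 90 tested pathway genes by role, 1 circle per gene with each gene drawn once; filled circles have an adjusted p under 0.05 and vertical lines mark medians. The filled circles of the target genes reach from -1.71 (ID1) to 0.56 (RHOB), and most SMADs and their regulators lie near 0.

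Against control, Carbo+COM33 had 6 pathway genes higher and 7 lower, with a median of -0.05 over the 90 genes, beside 6.29% of all genes called (527 up, 508 down) and a median of -0.01. The 8 with the lowest p were ANGPTL4 (-1.86, adjusted p = 0.00139), RHOB (0.60, adjusted p = 0.00253), IL11 (-1.21, adjusted p = 0.00731), PMEPA1 (-0.78, adjusted p = 0.00942), ID1 (-1.31, adjusted p = 0.0146), ID3 (-1.43, adjusted p = 0.0154), SMAD6 (-1.36, adjusted p = 0.0228) and SNAI2 (0.49, adjusted p = 0.0249), which encodes the EMT transcription factor Slug. ANGPTL4 and RHOB were called with any single library left out. Without control library 2 the other 6 were not called (adjusted p at most 0.126), and some of them were also lost without control library 3 or Carbo+COM33 library 1 or 2. This comparison shares its Carbo+COM33 libraries with the preceding one.

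The member genes' positions, in GRCh38 with GENCODE 29, bear on what the counts can hold. TGFB1 (chr19, 41301587 to 41353911, minus strand) shares 215 exonic bases with HNRNPUL1 on the opposite strand, a gene with 2219 to 3369 reads per library, and TGFB2 (chr1, 218346235 to 218444619, plus strand) shares 1371 exonic bases with TGFB2-OT1 on the same strand. INHBA (chr7, 41667168 to 41705834, minus strand) shares none with INHBA-AS1, which had 0 to 6 reads, and TGFBR2 lies on chr3 from 30606502 to 30694142 on the plus strand. Whether the counting used strand is not given in the sources used here, so reads of overlapping genes on opposite strands cannot be told apart. TGFB2-OT1 has no row in the deposited table. How reads in the bases it shares with TGFB2, which has 5151 exonic bases, were assigned is not given either. The level of TGFB2 and its share of the TGF-beta ligand FPKM may depend on that.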

How the data were processed

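RNA-seq of 9 SKOV3 libraries was analysed from 1 deposited table of gene counts and FPKM. The submitters' processing notes name the aligner HISAT2, the counter HTSeq 0.11.2, DESeq2 1.26.0 and the build GRCh38; settings and strand are not given in the sources used here. The deposited counts are whole reads per gene, not normalized. The deposited FPKM values equal the count per kilobase of GENCODE 29 union exon and per 1000000 counted reads for 32372 of 32378 genes, within a relative tolerance of 0.001, and were used only for levels, ratios and an alternative test. Members and gene lists were chosen with earlier results of these data known.

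Counts were tested with edgeR 4.0.16 (TMM, filterByExpr, quasi-likelihood F test, 1 coefficient per group over all 9 libraries) in R 4.3.3, with Benjamini-Hochberg adjustment over 16450 genes and a threshold of 0.05. CPM are counts per 1000000 of TMM-scaled library size. The common dispersion was 0.0133. SE is the log2 fold change divided by the root of F. The precision is limited by the read number (a total count of 13851760 to 15533668 per library) and by 3 libraries a group. The paired test added the replicate number as a block to the 6 libraries of a comparison, which leaves 2 residual degrees of freedom. Numbers were held to pair 2 groups where deviations from group means, over genes with mean log2 CPM above 5, correlated by over 0.1 in all 3 pairs. That held for Carbo with control (0.824, 0.565, 0.748) and not for Carbo+COM33 with Carbo (-0.015, 0.138, -0.388) or with control (0.0851, 0.101, -0.42).

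The text names all members, up to 8 called pathway genes per comparison by lowest p, from the paired test where the unpaired one called none, and the 5 genes nearest in pattern to the member with the lowest p. The alternatives were RLE size factors, no count filter, DESeq2 1.42.0, 2 groups only, the replicate block, removal of GC and length trends (splines with 5 degrees of freedom each), limma 3.58.1 on log2(FPKM + 0.1) and log2(FPKM + 1), and each library left out. The edgeR test was tested on simulated data. Sequences came from a RefSeq promoter table in which all 10 members had an entry. Figures were drawn with matplotlib 3.10.9.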

Additional observations from a re-analysis of the deposited data

How the results depend on the processing

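Of 594 alternative fits of the members' log2 fold changes, 538 kept their side of the threshold, 34 gained a call and 22 lost one. None reversed a called direction, and in 28 the sign changed with no call in either fit. Of 528 for the named pathway genes, 50 gained and 44 lost a call. INHBA for Carbo+COM33 against Carbo was called in 21 of 22 alternatives, TGFBR2 in 7 of 22, and TGFB1 for Carbo+COM33 against control in 16 of 22. Depth limits TGFB3, INHBB and FST, with 114, 158 and 4 reads in all.

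For Carbo against control, where the unpaired test called 0 genes, the whole table gave 928 calls without the count filter, 132 with DESeq2, 3739 with the replicate block, 1734 with the block and GC and length trends removed, and 0 with a block over all 9 libraries. Members called were 1, 0, 4, 1 and 0 in the same order, and pathway genes 10, 1, 28, 19 and 0. With 1 library left out these counts ran from 0 to 1034 (Carbo library 1 left out; 0 for every other library), 0 to 2 and 0 to 10. With the block and 1 replicate number left out, an alternative chosen after seeing the data, they were 4338, 1623 and 2842 (without number 1, 2 and 3) over the table, 2 to 3 and 17 to 39.

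For Carbo+COM33 against Carbo, the 816 calls over the whole table became 1876 without the filter, 1356 with DESeq2, 502 with the replicate block, 1554 with a block over all 9 libraries, 1235 with GC and length trends removed, and 446 and 447 with limma at pseudocounts of 0.1 and 1. The 2 members called became 1 with RLE, 2 groups only, the block and both limma fits, and 4 without the filter. The 14 pathway genes called became 28 without the filter and 27 with the 9-library block. With 1 library left out the counts ran from 120 (Carbo library 2) to 2721 (Carbo library 1), 1 to 4 and 3 to 32, and with the block and replicate number 1, 2 or 3 left out 1879, 280 and 1336 over the table, 1 to 3, and 29, 10 and 24.

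For Carbo+COM33 against control, the 1035 calls became 1934 without the filter, 1563 with DESeq2, 1625 with the 9-library block, 1700 with the block and trends removed, and 652 and 656 with limma. The 1 member called became 2 with the block and trends removed. The 13 pathway genes called became 27 without the filter, 21 with 2 groups only, 22 with the block, 25 with the 9-library block, 29 with the block and trends removed, and 6 with both limma fits. With 1 library left out the counts ran from 114 (control library 2) to 2208 (Carbo+COM33 library 3), 0 to 2 and 2 to 23, and with the block and 1 number left out from 310 to 5163, 0 to 2 and 13 to 40. The replicate numbers did not pair the samples of these last 2 comparisons. The cause of these shifts was not tested.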

Other observations

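Ratios of FPKM within a library, which do not depend on scaling between libraries, were also computed; they were not tested. The ratio of the type II receptor TGFBR2 to the type I receptor TGFBR1 was 3.07, 4.28 and 4.29 in control libraries 1, 2 and 3, 3.26, 4.15 and 4.65 in Carbo and 3.13, 3.13 and 2.65 in Carbo+COM33. Control library 1 lay within the range of the Carbo+COM33 libraries and Carbo library 1 a little above all 3 of them. The other control and Carbo libraries lay further above.

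The ratio of the activin chains INHBA to INHBB was 2.82, 5.02 and 6.28 in control, 3.25, 10.8 and 22.2 in Carbo and 1.65, 1.46 and 4.39 in Carbo+COM33, and rests on 5 to 31 INHBB reads per library. LTBP1 to LTBP2 was 0.905 to 1.06 in control, 0.757 to 1.36 in Carbo and 0.905 to 1.03 in Carbo+COM33. The share of TGFB2 in the TGF-beta ligand FPKM was 3.22%, 4.03% and 2.24% in Carbo+COM33, which overlaps the control libraries.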
